A study of Mus musculus with 24 samples.

Results

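The unfolded protein response and the integrated stress response were described here through 10 genes, chosen by symbol: the transcription factors Atf4, Ddit3, Atf3 and Xbp1, the stress effectors Trib3, Asns, Sesn2 and Chac1, and the endoplasmic reticulum (ER) proteins Hspa5 and Herpud1. These genes, and the gene lists used below, were chosen with earlier results of these data known. Their counts and medians beside those of all genes are therefore descriptions and not independent tests. All 10 were listed and tested in both tissues, among 36109 genes listed and 16819 tested in the lung and 36595 listed and 19173 tested in the retina. The symbol Ddit3 belongs to a second gene identifier, which held 0 counts in every library, so values for Ddit3 come from ENSMUSG00000025408.

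RNA sequencing was carried out on whole lungs and retinas of neonatal mice, 12 libraries per tissue and 1 mouse per library, in 4 groups of 3. GSDMD-KO mice carry a CRISPR deletion of 38 bases in exon 5 of Gsdmd, the gene of the pore-forming protein of pyroptosis, in all cells and on a C57/B6 background, and WT mice were their littermates from matings of heterozygotes. Lungs came from pups kept in 85% oxygen (WT-O2 and KO-O2) or in 21% oxygen, room air (WT-RA and KO-RA), from postnatal day 1 to 14, and were collected on day 15, a model of bronchopulmonary dysplasia. Retinas came from pups kept in 75% oxygen from postnatal day 7 to 12 and then in room air, or in room air throughout, and were collected on day 18, a model of retinopathy of prematurity, so that lungs were taken at the end of the exposure and retinas after days of recovery.

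When unfolded proteins accumulate in the ER, the sensors PERK, IRE1 and ATF6 start the unfolded protein response. PERK is also 1 of the 4 kinases of the integrated stress response, with GCN2, PKR and HRI, which phosphorylate the initiation factor eIF2, lower general translation and raise translation of ATF4. ATF4 and its partners then drive genes of amino acid supply and stress, while XBP1 and ATF6 drive chaperones and degradation factors of the ER. XBP1 is activated by splicing and ATF4 by translation, and counts summed per gene measure neither.

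The promoter sequences are shown because 5 of the 10 genes hold a letter match to an element through which these factors are known to act. The RefSeq promoter table (GRCm38.p6) had an entry for each of the 10 genes, and the 250 bases before the start were searched on both strands for 3 motifs that do not overlap each other in these windows. The C/EBP-ATF response element TGATGNAA, bound by ATF4 and C/EBP factors, was found in 4 of 10 promoters against 3.45% of 32851 promoters of the same length. The ER stress response element, CCAAT and CCACG with 9 bases between them, through which ATF6 acts, was found in Hspa5 and in 0.113% of all promoters, and the unfolded protein response core TGACGTG was found in Hspa5 and in 1.65%. Each sequence runs 5′ to 3′ on the gene's strand, and capitals mark the match.
Atf3: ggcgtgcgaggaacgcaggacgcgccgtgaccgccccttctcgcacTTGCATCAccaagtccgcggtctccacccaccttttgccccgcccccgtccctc
Chac1: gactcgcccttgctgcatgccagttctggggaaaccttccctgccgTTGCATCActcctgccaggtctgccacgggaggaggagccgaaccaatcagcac
Asns: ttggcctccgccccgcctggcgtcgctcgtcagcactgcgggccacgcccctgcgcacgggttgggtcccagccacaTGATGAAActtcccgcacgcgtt
Herpud1: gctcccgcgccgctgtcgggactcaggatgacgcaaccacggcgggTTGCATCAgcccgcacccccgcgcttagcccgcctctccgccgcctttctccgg
Hspa5: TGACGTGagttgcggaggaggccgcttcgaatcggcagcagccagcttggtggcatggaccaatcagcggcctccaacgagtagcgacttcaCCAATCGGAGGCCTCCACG

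In Atf3 (chr1:191183390-191183489, minus strand) the match lay from base -110 to -103 relative to the start of the gene, in Herpud1 (chr8:94386271-94386370, plus strand) from -112 to -105, and in Chac1 (chr2:119351003-119351102, plus strand) from -193 to -186. Those 3 matches have the same letters, the motif read on the opposite strand. In Asns (chr6:7693210-7693309, minus strand) the match lay on the gene's own strand, from -23 to -16. In Hspa5 (chr2:34771933-34772043, plus strand) the core motif lay from -157 to -151 and the ER stress element from -65 to -47. Atf4, Ddit3, Trib3, Sesn2 and Xbp1 had none of these letters in the window. A match describes letters and is not a measured binding site.

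Library totals were 28763661 to 29604254 estimated counts in the lung and 24863257 to 29093035 in the retina. Levels are given as CPM, the count of a gene scaled to a common library size with TMM factors, and differences as log2 fold changes ± SE from edgeR's quasi-likelihood test on all 12 libraries of a tissue, with Benjamini-Hochberg adjustment over all genes tested. A gene passed at an adjusted p under 0.1 and an unadjusted p under 0.05. Marker genes matched the labelled tissues: 8 alveolar type 2 genes summed to 14400 to 23200 CPM in lungs, and 6 rod genes to 49200 to 73200 CPM in retinas and 3.04 to 4.58 CPM in lungs. Gsdmd itself was lower in GSDMD-KO lungs (11.7 to 24.8 CPM) than in WT lungs (32.1 to 42.3 CPM) without overlap, while in retinas it was low and the genotypes overlapped (0.636 to 2.95 CPM in GSDMD-KO and 0.419 to 5.70 CPM in WT); counts per gene cannot show the small deletion. The library WT-RA replicate 2, at 0.419 CPM, lay below all 6 GSDMD-KO retinas. Of the retina libraries 3 stood apart, as 7 lens genes summed to 13200 and 43600 CPM in WT-RA replicates 2 and 3 and to 17600 CPM in KO-RA replicate 3, against 5.75 to 237 CPM in the other 9. The lung library KO-O2 replicate 1 held 175 CPM of 7 liver genes against 1.51 to 2.64 CPM in the other 3 groups. Y-linked expression put males at 0 of 3 in WT-RA, 1 of 3 in WT-O2, 2 of 3 in KO-RA and 3 of 3 in KO-O2 lungs, and at 3 of 3 in both room air groups and 1 of 3 in both hyperoxia groups of the retina, so that sex moved with the groups. The lens-rich retina KO-RA replicate 3 also held 1600 CPM of the liver list and 1070 CPM of retinal pigment epithelium genes, against 71 to 423 and 24 to 218 CPM in the other 11 retinas. The liver sum of WT-RA retinas was mostly Ttr (mean 274 CPM), with Apoa2 at 10.4 and Alb at 0.0394 CPM. Ahsg and Serpina1a had 0 counts in KO-RA. The list is thus no clear measure of liver tissue in retinas.

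In WT lungs, hyperoxia raised 7 of the 10 genes, lowered 1 and left 2 short of the threshold. The rises were those of Atf3, Sesn2, Asns, Trib3, Ddit3, Atf4 and Herpud1, and the fall was that of Xbp1. Of all genes tested in this comparison 49.2% passed, 24.5% higher and 24.7% lower, so many genes outside these pathways changed as well. With a fold change of at least 2 added to the threshold, 2 of the 10 passed, Atf3 and Sesn2, against 11.6% of all genes. The median log2 fold change over the 10 genes was 0.70, and over all genes it was -0.01. Cell type genes moved in the same comparison: 7 of 7 erythroid genes were lower (15800 to 18200 CPM in WT-RA and 2920 to 4150 CPM in WT-O2, summed), and of 7 macrophage genes 4 were higher and 2 lower, with sums of 482 to 878 and 356 to 517 CPM. Of 7 endothelial genes 4 were lower and 1 higher (3820 to 4130 and 2980 to 3460 CPM), and of 6 alveolar type 1 genes 3 were lower and 0 higher (3690 to 4280 and 3200 to 3560 CPM). Their part in the levels of the 10 genes was not tested.

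**Figure D1:**
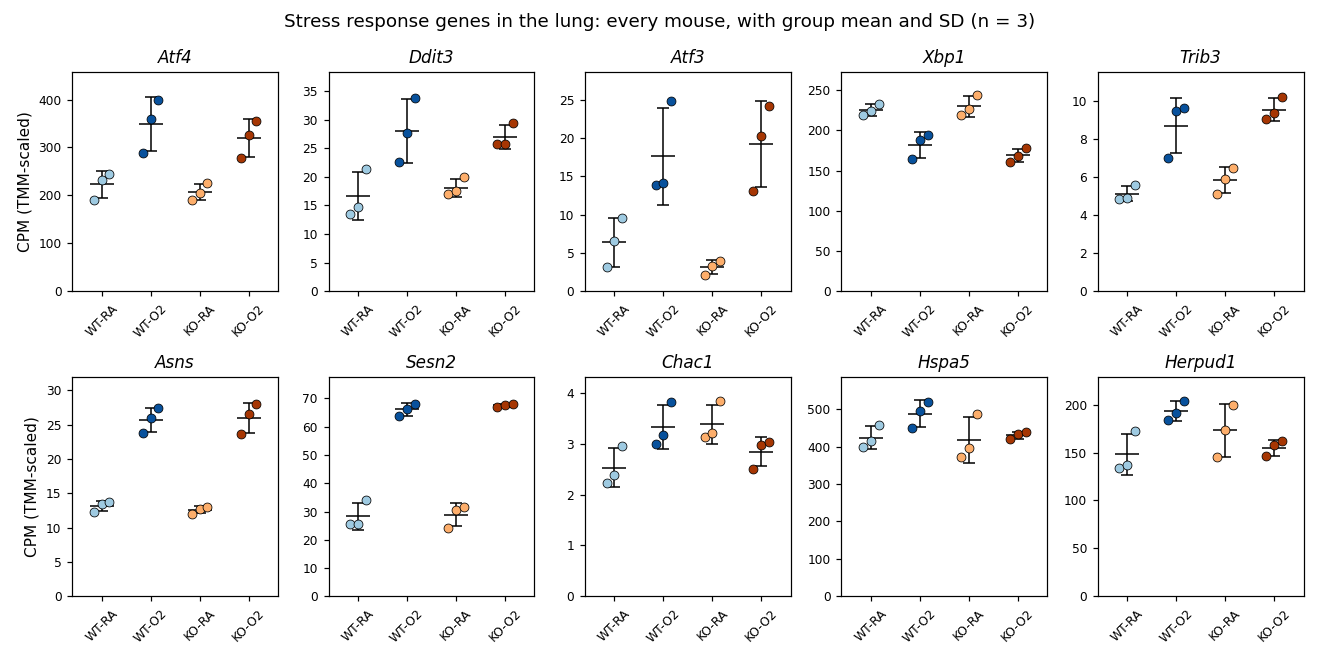
Level in CPM (vertical axes, from 0) of each of the 10 genes in the 12 lungs, by group on the horizontal axes. Points are mice, bars the mean and SD of 3 mice. Sesn2 and Asns in both hyperoxia groups lie well above both room air groups, Xbp1 lies below them, and Chac1 in KO-O2 lies below KO-RA.

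Atf4, the transcription factor at the centre of the integrated stress response, stood at 191, 233 and 244 CPM in WT-RA and at 288, 360 and 399 CPM in WT-O2 lungs. Every exposed WT lung lay above every WT lung in room air, with a log2 fold change of 0.65 ± 0.13 (adjusted p = 0.00124). In GSDMD-KO lungs the levels were 191, 204 and 226 CPM in room air and 278, 327 and 355 CPM in hyperoxia (0.63 ± 0.13, adjusted p = 0.00162). The groups did not overlap in either genotype.

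Ddit3, which encodes the pro-apoptotic factor CHOP, had 13.5, 14.8 and 21.3 CPM in WT-RA and 22.6, 27.6 and 33.8 CPM in WT-O2. In GSDMD-KO it had 17, 17.5 and 19.9 CPM in room air and 25.7, 25.8 and 29.4 CPM in hyperoxia. The rise was 0.76 ± 0.17 on the log2 scale in WT (adjusted p = 0.00259) and 0.57 ± 0.17 in GSDMD-KO (adjusted p = 0.0153), again without overlap.

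Atf3, a stress-induced repressor and activator of the same family, varied most between mice of a group. It was at 3.13, 6.56 and 9.49 CPM in WT-RA and at 13.8, 14.1 and 24.9 CPM in WT-O2, a rise of 2.75-fold (log2 1.46 ± 0.40, adjusted p = 0.0149). In GSDMD-KO lungs it was at 2.12, 3.22 and 3.93 CPM in room air and 13.1, 20.2 and 24.2 CPM in hyperoxia, a rise of 6.2-fold (log2 2.63 ± 0.43, adjusted p = 0.000829). The hyperoxia groups of the 2 genotypes overlapped, and the difference in rise was 1.17 ± 0.58 (interaction, adjusted p = 0.786). In room air the log2 difference of KO-RA from WT-RA was -1.05 ± 0.44, with overlapping groups (unadjusted p = 0.0372, adjusted p = 0.441). Macrophage genes summed to 482 to 878 CPM in WT-RA and 233 to 261 CPM in KO-RA lungs, with 1 of 7 lower and 0 higher by the test, and their part in this difference was not tested.

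Xbp1, the factor downstream of IRE1, was the gene that fell. It was at 219, 224 and 233 CPM in WT-RA and at 164, 188 and 194 CPM in WT-O2 (-0.31 ± 0.08, adjusted p = 0.00735). In GSDMD-KO it was at 219, 227 and 244 CPM in room air and 161, 168 and 178 CPM in hyperoxia (-0.45 ± 0.08, adjusted p = 0.000609). All 6 exposed lungs lay below all 6 lungs in room air. Xbp1 is also known for high expression in secretory cells, and the summed alveolar type 2 genes ranged from 20500 to 23200 CPM in room air lungs and from 14400 to 17600 CPM in exposed lungs, with 4 of 8 lower in WT and 5 of 8 lower in GSDMD-KO. The plasma cell list summed to 407 to 575 CPM in room air and 394 to 459 CPM in hyperoxia, with 5 of 6 tested genes lower in each genotype. In WT-RA that sum was mostly Ighm (248 CPM), Sdc1 (186 CPM) and Igkc (97.4 CPM). Jchain, Igha and Tnfrsf17 were near the floor (0.572, 0.31 and 0.0573 CPM), so the list does not show that plasma cells were present. In bulk tissue, fewer cells of a type and less RNA per cell cannot be told apart. The part of the cells behind either list in the fall of Xbp1 was not tested.

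Sesn2, whose product sestrin 2 restrains the growth kinase mTORC1, changed with little spread. Its levels were 25.5, 25.7 and 33.9 CPM in WT-RA and 63.8, 66.4 and 68.1 CPM in WT-O2, a rise of 2.33-fold (log2 1.22 ± 0.12, adjusted p = 1.5e-06). In GSDMD-KO they were 24.2, 30.5 and 31.7 CPM in room air and 66.9, 67.7 and 68.0 CPM in hyperoxia, a rise of 2.35-fold (log2 1.23 ± 0.12, adjusted p = 1.66e-06). The 6 exposed lungs of both genotypes thus lay within 63.8 to 68.1 CPM.

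Asns, the gene of asparagine synthetase, had 12.3, 13.5 and 13.7 CPM in WT-RA and 23.8, 26.0 and 27.4 CPM in WT-O2 (log2 0.96 ± 0.10, adjusted p = 2.54e-06). In GSDMD-KO it had 12.0, 12.8 and 13.0 CPM in room air and 23.6, 26.5 and 28.0 CPM in hyperoxia (1.05 ± 0.10, adjusted p = 1.36e-06). The interaction was 0.08, with a 95% interval from -0.20 to 0.37. For Sesn2 it was 0.01, with an interval from -0.34 to 0.36.

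Trib3, a pseudokinase that feeds back on ATF4, was at 4.85, 4.91 and 5.57 CPM in WT-RA and at 7.02, 9.46 and 9.60 CPM in WT-O2 (0.77 ± 0.15, adjusted p = 0.00092). In GSDMD-KO it was at 5.12, 5.91 and 6.45 CPM in room air and at 9.03, 9.34 and 10.2 CPM in hyperoxia (0.71 ± 0.15, adjusted p = 0.00161). Exposed and room air lungs did not overlap in either genotype.

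Chac1, which encodes a glutathione-degrading enzyme, had low counts, 64 to 113 per lung. It was at 2.23, 2.39 and 2.96 CPM in WT-RA and at 2.99, 3.17 and 3.82 CPM in WT-O2, so that the groups did not overlap and the difference of 0.40 ± 0.19 missed the threshold (adjusted p = 0.101). Of all genes 49.8% had no overlap in that comparison. It passed without WT-RA replicate 3 (adjusted p = 0.0508) or WT-O2 replicate 2 (adjusted p = 0.0938), and by limma (adjusted p = 0.0995) and RLE scaling (adjusted p = 0.0989). In GSDMD-KO the order was the opposite, with 3.12, 3.21 and 3.83 CPM in room air and 2.51, 2.97 and 3.04 CPM in hyperoxia (-0.25 ± 0.18, adjusted p = 0.304), in a comparison where 52.4% of all genes had no overlap. The interaction was -0.65 ± 0.26 and did not pass (unadjusted p = 0.0261, adjusted p = 0.682).

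Hspa5, the ER chaperone BiP and the usual readout of ATF6, was at 399, 416 and 457 CPM in WT-RA and 449, 494 and 520 CPM in WT-O2 lungs. These groups overlapped, and the log2 difference was 0.20 (95% interval from -0.02 to 0.42, adjusted p = 0.128). In GSDMD-KO lungs it was at 371, 395 and 488 CPM in room air and 420, 433 and 438 CPM in hyperoxia, a difference of 0.04 with an interval from -0.18 to 0.26. DESeq2 called the difference in WT (adjusted p = 0.0968), as did edgeR without WT-RA replicate 2 (0.0923), WT-O2 replicate 3 (0.0881) or KO-RA replicate 3 (0.0634). A 2-fold rise lay outside both intervals.

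Herpud1, an ER membrane protein of ER-associated degradation, was at 134, 137 and 172 CPM in WT-RA and 184, 191 and 204 CPM in WT-O2 (0.38 ± 0.12, adjusted p = 0.0171). In GSDMD-KO it was at 145, 173 and 200 CPM in room air and at 146, 158 and 162 CPM in hyperoxia, where the groups overlapped (-0.15 ± 0.12, adjusted p = 0.318). Without KO-RA replicate 1 the difference in GSDMD-KO was -0.27 and passed (adjusted p = 0.0872). The KO-O2 lungs lay below the WT-O2 lungs without overlap (-0.31 ± 0.12, unadjusted p = 0.0174, adjusted p = 0.736). Groups without overlap, in either direction, were found for 12.2% of all genes. The interaction was -0.54 ± 0.17, with an unadjusted p of 0.00565 and an adjusted p of 0.513. The difference in response between genotypes therefore did not pass for Herpud1.

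In GSDMD-KO lungs, 7 of the 10 genes passed for hyperoxia, 6 higher and 1 lower, against 46.7% of all genes (23.3% higher and 23.4% lower). All 7 also passed in WT, in the same direction, but the comparisons rest on separate lungs fitted with 1 estimate of the spread. Atf3, Sesn2 and Asns passed with a fold of at least 2, against 10.6% of all genes. Of 7 macrophage genes 5 were higher and 1 lower in KO-O2 (sums of 233 to 261 CPM in KO-RA and 280 to 403 CPM in KO-O2), and 1 of 7 erythroid genes was lower. Of 7 endothelial genes 3 were lower and 1 higher (3470 to 3650 and 2790 to 3520 CPM). Of 6 airway epithelium genes 3 were lower and 1 higher (11300 to 14200 and 7530 to 11300 CPM). All 3 tested liver genes were higher, with 175 CPM of liver genes in KO-O2 replicate 1. The part of these cell types in the levels of the 10 genes was not tested. Between genotypes, 0 of the 10 genes passed in KO-O2 against WT-O2, in KO-RA against WT-RA or in the interaction, by edgeR, DESeq2 or limma. The share of all genes that passed was 0.0416%, 0.488% and 0.00595%. At an unadjusted p under 0.05, the counts of the 10 genes were 1 (Herpud1), 2 (Atf3 and Chac1) and 2 (Chac1 and Herpud1), against 6.21%, 10.5% and 6.72% of all genes. Erythroid genes summed to 2920 to 4150 CPM in WT-O2 and 5970 to 29900 CPM in KO-O2 lungs, where 0 of 7 passed, and their part in these values was not tested.

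**Figure D2:**
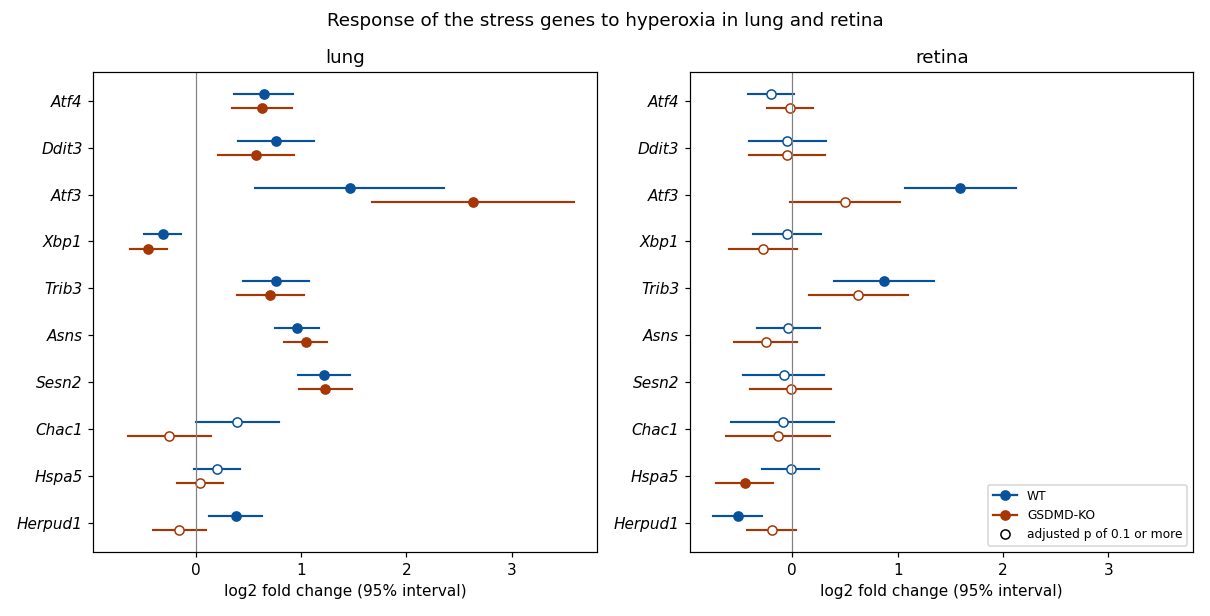
Log2 fold change of hyperoxia against room air for each gene (horizontal axes), in lung and retina, with 95% intervals. Blue is WT, brown GSDMD-KO, and filled points passed the test. In the lung the intervals of both genotypes lie right of 0 for 6 genes, and in the retina most intervals span 0, with Atf3 in WT farthest to the right.

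Other genes of the pathways were counted from 6 lists of gene function, with 85 genes tested in each tissue. In WT lungs 46 of the 85 passed, 39 of them higher, where 49.2% of all genes passed, 24.5% higher. The ATF4 amino acid and metabolic targets had 14 of 20 higher and 3 lower, with a median log2 fold change of 0.52. The 3 with the smallest p were Slc7a1, an arginine transporter, at 0.88 ± 0.09 (adjusted p = 2.76e-06), Sars, seryl-tRNA synthetase, at 0.70 ± 0.08 (adjusted p = 1.08e-05), and Mthfd2, a mitochondrial folate enzyme, at 1.11 ± 0.15 (adjusted p = 4.81e-05). Slc7a11, the cystine transporter, was singled out after its values were seen, with 2.00 to 2.66 CPM in WT-RA and 18 to 38.1 CPM in WT-O2, a rise of 10.9-fold (log2 3.45 ± 0.41, adjusted p = 6.2e-05). Lower were Psph, Wars and Cebpg, which encode a serine synthesis enzyme, tryptophanyl-tRNA synthetase and a C/EBP partner of ATF4.

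Among the stress-induced regulators, 8 of 14 tested genes were higher in WT-O2 and 0 lower. Gdf15, a secreted stress cytokine, went from 1.01 to 1.65 CPM in WT-RA to 40.2 to 118 CPM in WT-O2, a rise of 51.7-fold (log2 5.69 ± 0.48, adjusted p = 1.37e-05). Atf5, a relative of ATF4, rose by 0.87 ± 0.11 (adjusted p = 2.03e-05) and Sqstm1, the autophagy receptor p62, by 0.73 ± 0.11 (adjusted p = 9.68e-05). In GSDMD-KO lungs, Gdf15 went from 1.21 to 1.47 CPM to 29.4 to 49.5 CPM, a rise of 28.4-fold (log2 4.83 ± 0.48, adjusted p = 4.24e-05).

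Of 14 ER chaperones and folding enzymes listed in the table, 5 were higher and 1 lower in WT, with a median of 0.13. P4hb, a protein disulfide isomerase, rose by 0.35 ± 0.08 (adjusted p = 0.0031) and Hyou1, an ER chaperone induced by hypoxia, by 0.35 ± 0.09 (adjusted p = 0.00549). Dnajb9, a co-chaperone induced through XBP1, fell from 46.0 to 58.4 CPM in WT-RA to 35.1 to 37.7 CPM in WT-O2 (-0.49 ± 0.11, adjusted p = 0.00181), and in GSDMD-KO from 53.2 to 68.7 CPM to 35.9 to 39.7 CPM (-0.66 ± 0.11, adjusted p = 0.000175). Dnajb9 and Xbp1 were thus lower in exposed lungs of both genotypes. Dnajb9 was the 1 lower gene of its list in WT, beside 5 higher, and in GSDMD-KO 2 were lower and 3 higher. Most of the list did not share its fall, and the activity of XBP1 was not measured.

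The 15 genes of ER-associated degradation and transport had 4 higher and 1 lower in WT lungs and a median of -0.02. Wfs1, an ER membrane protein, rose by 0.45 ± 0.08 (adjusted p = 0.000279), the segregase gene Vcp by 0.25 ± 0.08 (adjusted p = 0.0159), and Selenos fell by 0.19 (adjusted p = 0.0514). The call for Selenos was lost with no low-count filter (0.119), with sex as an added term (0.102), and without WT-RA replicate 1 (0.106) or 2 (0.136) or WT-O2 replicate 1 (0.144). Among 9 mitochondrial stress proteins 3 were higher and 0 lower. Hspa9, the mitochondrial HSP70, went from 90.9 to 102 CPM to 179 to 206 CPM (log2 0.99 ± 0.10, adjusted p = 1.62e-06), and the proteases Clpp and Lonp1 rose by 0.52 ± 0.09 and 0.28 ± 0.07. Of 13 genes of sensors and eIF2 control, 5 were higher and 2 lower. Eif2s1, the alpha subunit of eIF2, rose by 0.59 ± 0.09 (adjusted p = 0.000122), Eif2ak4, the amino acid sensor GCN2, by 0.41 ± 0.08 (adjusted p = 0.0013), and the adaptor Nck1 fell by 0.76 (adjusted p = 4.89e-05).

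In GSDMD-KO lungs 49 of the 85 genes passed, 39 of them higher, against 46.7% of all genes (23.3% higher). By list, the counts higher and lower were 14 and 3 for ATF4 targets, 7 and 1 for stress regulators, 3 and 2 for ER chaperones, 4 and 1 for degradation, 5 and 1 for mitochondrial proteins and 6 and 2 for sensors. None of the 85 passed between genotypes or in the interaction by edgeR, DESeq2 or limma, and at an unadjusted p under 0.05 the counts were 3 in KO-O2 against WT-O2, 5 in KO-RA against WT-RA and 0 in the interaction, where 6.21%, 10.5% and 6.72% of all genes had such a p.

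**Figure D3:**
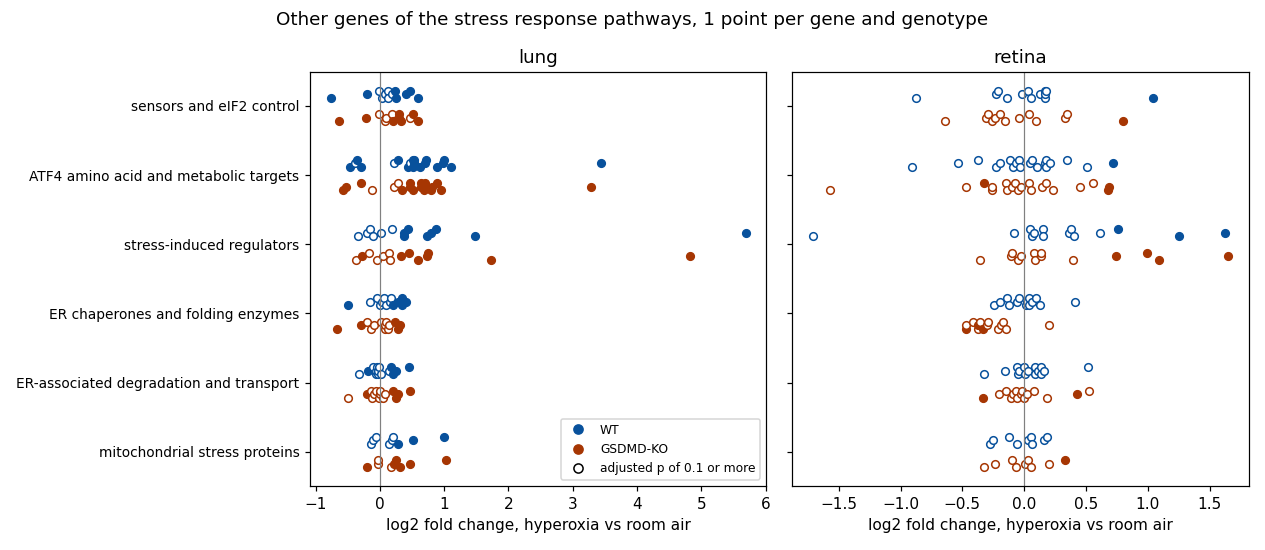
Log2 fold change of hyperoxia against room air (horizontal axes) for each gene of 6 pathway lists (rows), in lung and retina. Blue points are WT and brown points GSDMD-KO, and filled points passed the test. In the lung most ATF4 targets lie right of 0, with Gdf15 farthest right among the regulators, and in the retina of GSDMD-KO mice nearly all chaperones lie left of 0.

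In WT retinas, oxygen-induced retinopathy changed 3 of the 10 genes, against 5.16% of all genes tested (3.11% higher and 2.05% lower). Atf3 and Trib3 rose and Herpud1 fell. Atf3 was the gene that passed with a fold of at least 2, against 2.04% of all genes. The median over the 10 genes was -0.05, and over all genes 0.00. In the same comparison 7 of 7 endothelial and 2 of 5 microglia genes were higher (sums of 95.8 to 113 and 14 to 29.3 CPM in WT-RA, and 193 to 227 and 33.7 to 51.5 CPM in WT-O2). Lower were 2 of 6 ganglion cell genes (1020 to 1420 and 839 to 944 CPM), 2 of 5 bipolar genes (663 to 730 and 517 to 601 CPM) and 2 of 5 amacrine genes (638 to 825 and 497 to 544 CPM). Of 6 Mueller glia genes 2 were lower and 1 higher (2370 to 3070 and 2020 to 2270 CPM), and 1 of 6 cone genes was lower (1350 to 1470 and 1220 to 1290 CPM). Their part in the levels of Atf3, Trib3 and Herpud1 was not tested. Retina and lung were compared by these values side by side, since their tables were made separately and the exposures differ.

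**Figure D4:**
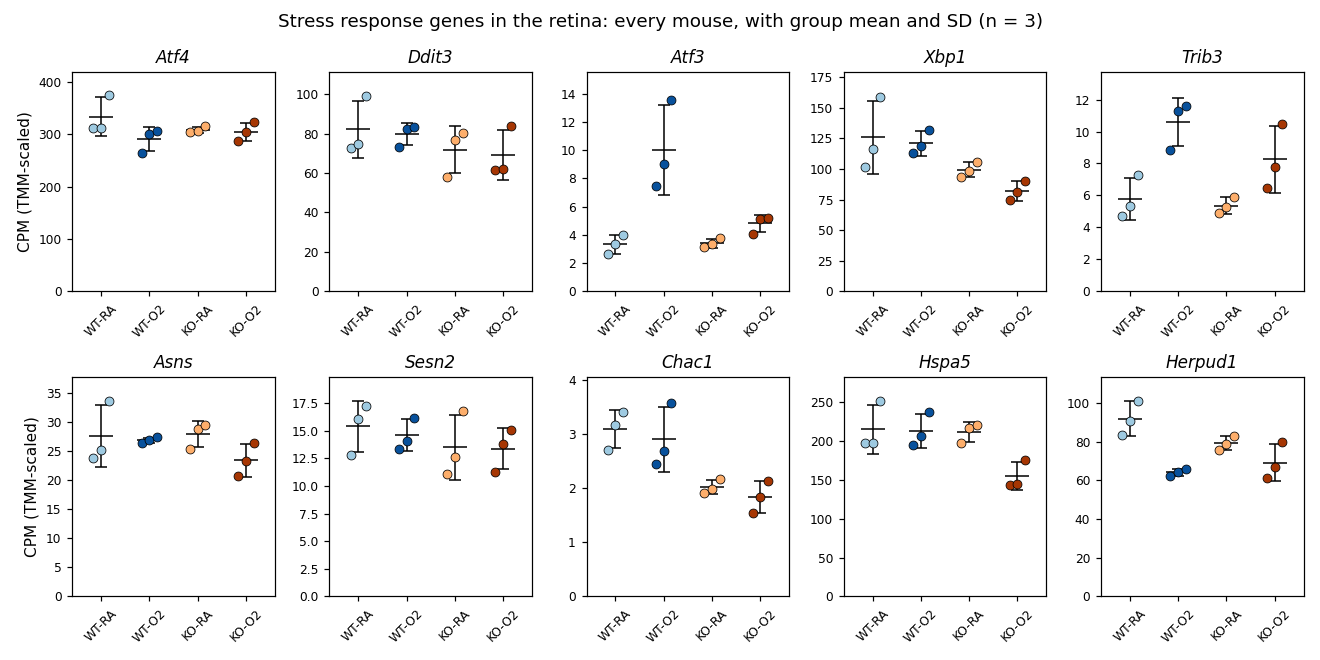
Level in CPM (vertical axes, from 0) of each of the 10 genes in the 12 retinas, by group on the horizontal axes. Points are mice, bars the mean and SD of 3 mice. Atf3 in WT-O2 lies above the other 3 groups, at 7.45 to 13.6 CPM, and Hspa5 in KO-O2 lies below them, at 144 to 175 CPM.

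Atf3 stood at 2.66, 3.32 and 3.96 CPM in WT-RA and at 7.45, 9.00 and 13.6 CPM in WT-O2 retinas. The 3 exposed WT retinas lay above all other retinas, and the rise was 3.02-fold (log2 1.59 ± 0.24, adjusted p = 0.0069). In GSDMD-KO it was at 3.10, 3.33 and 3.75 CPM in room air and at 4.07, 5.13 and 5.21 CPM in hyperoxia, where the groups did not overlap and the difference of 0.50 ± 0.24 did not pass (adjusted p = 0.264). Of all genes, 24% had no overlap between WT-O2 and WT-RA and 26.2% between KO-O2 and KO-RA. These shares apply to each gene described below as without overlap for hyperoxia in retinas.

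Between exposed retinas, Atf3 was lower in KO-O2 than in WT-O2 by 1.06 ± 0.24 on the log2 scale, or 2.09-fold (adjusted p = 0.0914). It was the 1 gene of the 10 that passed in that comparison, against 1.27% of all genes. That call rested on the choice of test and libraries: over 7 other settings the adjusted p ran from 0.00498 to 0.155 and 3 passed, and leaving out 1 mouse at a time 2 of 12 passed, those without WT-RA replicate 1 (0.0986) and without WT-RA replicate 3 (0.0943), and the others ran up to 0.281. The test of the difference in response, the interaction, gave -1.10 ± 0.33 (unadjusted p = 0.00711, adjusted p = 0.285), so the response of Atf3 was not shown to differ between genotypes. Summed endothelial genes ranged from 193 to 227 CPM in WT-O2, 162 to 179 CPM in KO-O2 and 95.8 to 123 CPM in room air, with 0 of 7 passing between exposed genotypes. In that comparison 4 of 5 tested erythroid genes were lower in KO-O2 and 1 of 5 bipolar genes was higher. The part of these cell types in the levels of Atf3 was not tested.

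Trib3 was at 4.73, 5.35 and 7.28 CPM in WT-RA and 8.86, 11.3 and 11.6 CPM in WT-O2 (0.87 ± 0.22, adjusted p = 0.059), without overlap. The 2 lowest values came from the lens-rich WT-RA libraries. Leaving out the 3 lens-rich libraries leaves 1 WT-RA retina, which is assumed to vary like the other groups, so that this fit says nothing about stability in WT. Its log2 fold change was 0.54 (adjusted p = 0.388). With sex as an added term it was 0.90 and did not pass (adjusted p = 0.183). It also did not pass without WT-O2 replicate 1 (adjusted p = 0.178) or 3 (0.159), or without WT-RA replicate 2 (0.191) or 3 (0.114). In GSDMD-KO, Trib3 was at 4.89, 5.25 and 5.91 CPM in room air and 6.48, 7.76 and 10.5 CPM in hyperoxia (0.63 ± 0.22, adjusted p = 0.131), a difference that DESeq2 called (adjusted p = 0.0841).

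Herpud1 was at 83.6, 90.6 and 101 CPM in WT-RA and at 62.2, 64.1 and 66.0 CPM in WT-O2, a fall of 0.52 on the log2 scale (SE 0.11, adjusted p = 0.0305). The exposed WT retinas lay close together and below all retinas in room air. In GSDMD-KO the levels were 75.6, 78.8 and 83.1 CPM in room air and 61.0, 66.8 and 79.7 CPM in hyperoxia, with overlap (-0.19 ± 0.11, adjusted p = 0.336). Against the 1 WT-RA retina that was not lens-rich the fall in WT was 0.67 (adjusted p = 0.0671), with the spread taken from the other groups. With sex as an added term it was 0.41 and did not pass (adjusted p = 0.202). It did not pass either without WT-O2 replicate 1 (0.101) or 2 (0.116) or WT-RA replicate 1 (0.103).

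Hspa5 was the 1 gene of the 10 that passed for hyperoxia in GSDMD-KO retinas, against 7.82% of all genes (4.38% higher and 3.44% lower). It was at 197, 217 and 221 CPM in KO-RA and at 144, 145 and 175 CPM in KO-O2 (-0.45 ± 0.12, adjusted p = 0.0671). In WT it was at 197, 197 and 251 CPM in room air and 195, 206 and 237 CPM in hyperoxia, a difference of -0.02 with a 95% interval from -0.29 to 0.25. All 3 KO-O2 retinas lay below the other 9. No overlap was found for 26.2% of all genes between KO-O2 and KO-RA and for 19.9% between KO-O2 and WT-O2. The fall in GSDMD-KO did not pass without the 3 lens-rich libraries, with 2 KO-RA retinas left (-0.42, adjusted p = 0.153), or with sex as an added term (-0.42, adjusted p = 0.221). Left out 1 at a time, KO-RA replicates 1 (0.115), 2 (0.153) and 3 (0.173) and KO-O2 replicates 2 (0.243) and 3 (0.183) each ended the call. The interaction was -0.44 ± 0.17 (unadjusted p = 0.0283, adjusted p = 0.407).

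Xbp1 was at 102, 116 and 159 CPM in WT-RA, 113, 119 and 132 CPM in WT-O2, 93.6, 98.4 and 106 CPM in KO-RA and 74.4, 81.0 and 90.4 CPM in KO-O2. The KO-O2 retinas lay below all others, where 26.2% of all genes had no overlap with KO-RA and 19.9% none with WT-O2. The log2 difference of KO-O2 from WT-O2 was -0.57 ± 0.15 (adjusted p = 0.134), and that of KO-O2 from KO-RA was -0.28 ± 0.15 (adjusted p = 0.324). The same comparison between exposed genotypes gave -0.46 ± 0.12 for Hspa5 (adjusted p = 0.142). DESeq2 called both differences between exposed genotypes, with adjusted p = 0.0101 for Xbp1 and 0.00862 for Hspa5. Both also passed in edgeR without WT-RA replicate 1 (adjusted p = 0.0495 for Xbp1 and 0.0945 for Hspa5), and Hspa5 passed without KO-O2 replicate 1 (0.0917).

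Chac1 was lower in GSDMD-KO than in WT retinas under both conditions without reaching the threshold. It was at 2.71, 3.17 and 3.40 CPM in WT-RA and 1.91, 1.98 and 2.16 CPM in KO-RA (-0.61 ± 0.23, adjusted p = 0.317), and at 2.45, 2.68 and 3.58 CPM in WT-O2 and 1.54, 1.84 and 2.14 CPM in KO-O2 (-0.66 ± 0.23, adjusted p = 0.245). All 6 GSDMD-KO retinas lay below all 6 WT retinas. Groups that do not overlap were found for 17.7% of all genes in room air and 19.9% in hyperoxia.

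Atf4, Asns, Sesn2 and Ddit3, which rose in lungs, did not pass for hyperoxia in the retina. Atf4 was at 312, 313 and 376 CPM in WT-RA and 264, 300 and 307 CPM in WT-O2, without overlap (-0.20 ± 0.10, adjusted p = 0.326), as for 24% of all genes, and at 305 to 316 CPM in KO-RA and 288 to 323 CPM in KO-O2. Asns was at 23.7 to 33.6, 26.3 to 27.3, 25.3 to 29.4 and 20.7 to 26.3 CPM in WT-RA, WT-O2, KO-RA and KO-O2. For WT its log2 difference of -0.04 had a 95% interval from -0.34 to 0.26. Sesn2 was at 12.8 to 17.3 CPM in WT-RA and 13.4 to 16.2 CPM in WT-O2, a difference of -0.08 with an interval from -0.47 to 0.30, and at 11.1 to 16.8 CPM in KO-RA and 11.3 to 15.1 CPM in KO-O2. Ddit3 was at 72.9 to 99.1 CPM in WT-RA, 73.3 to 83.4 CPM in WT-O2, 58.1 to 80.5 CPM in KO-RA and 61.6 to 83.9 CPM in KO-O2, and its difference in WT was -0.05 (interval from -0.41 to 0.32).

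Between GSDMD-KO and WT retinas in room air, and in the interaction, 0 of the 10 genes passed by edgeR, DESeq2 or limma, against 0.00522% of all genes in each. At an unadjusted p under 0.05 these were 2 (Chac1 and Xbp1) and 2 (Atf3 and Hspa5) of the 10, against 12.7% and 10.6% of all genes.

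Among the other pathway genes, 5 of the 85 passed in WT retinas by edgeR, all of them higher, a share near the 5.16% of all genes by edgeR. DESeq2 called 10 of the 85 and limma 5, but their shares over all genes are not given here. Shares over all genes by limma are not given for any comparison. The 5 that edgeR called were Eif2ak2, the kinase PKR, at 1.04 ± 0.23 (adjusted p = 0.0374), Slc7a1 at 0.71 ± 0.17 (adjusted p = 0.0518), Cebpb, a C/EBP factor, at 0.76 ± 0.22 (adjusted p = 0.0937), and Stc2 and Vegfa. Vegfa, the angiogenic ligand of this disease model, went from 234 to 256 CPM in WT-RA to 548 to 613 CPM in WT-O2 (log2 1.26 ± 0.13, adjusted p = 0.00118). Stc2, a secreted glycoprotein also induced by hypoxia, went from 1.75 to 2.66 CPM to 6.43 to 8.31 CPM (1.63 ± 0.21, adjusted p = 0.00278). Both passed in the 6 other settings that keep 3 WT-RA mice and in all 12 fits without 1 mouse, while Eif2ak2 and Slc7a1 passed in 8 and Cebpb in 1 of those 12. In GSDMD-KO retinas 14 of the 85 passed by edgeR, 9 of them higher, against 7.82% of all genes by edgeR. DESeq2 called 20 of the 85, and 2566 over all genes, and limma called 16 of the 85. By edgeR, Stc2 was at 1.65 ± 0.20 (adjusted p = 0.00381) and Vegfa at 1.00 ± 0.13 (adjusted p = 0.00381).

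Among the ER chaperones and folding enzymes in exposed GSDMD-KO retinas, 3 of 14 passed against KO-RA by edgeR, 6 by DESeq2 and 5 by limma. Over all genes, 7.82% passed by edgeR, and DESeq2 called 2566 genes. The 3 that edgeR called were lower: Canx by 0.48 (adjusted p = 0.0177), Hsp90b1 by 0.37 (adjusted p = 0.0702) and Hyou1 by 0.33 (adjusted p = 0.0809), which encode calnexin, GRP94 and an ER chaperone. In that comparison 6 of 7 endothelial and 2 of 5 microglia genes were higher (sums of 111 to 123 and 18.8 to 21.7 CPM in KO-RA, and 162 to 179 and 36.1 to 44.4 CPM in KO-O2), and 2 of 5 erythroid genes were lower (525 to 854 and 370 to 429 CPM). Of 6 Mueller glia genes 2 were higher and 2 lower (2340 to 2710 and 2210 to 2350 CPM). Lower was 1 of 6 ganglion cell genes (981 to 1100 and 795 to 913 CPM), and higher was 1 of 5 bipolar genes (666 to 703 and 691 to 828 CPM). Retinal pigment epithelium genes summed to 118 to 1070 CPM in KO-RA and 31 to 86.8 CPM in KO-O2, with 0 of 5 passing. The 1070 CPM came from the lens-rich KO-RA replicate 3. The median of the chaperone list was -0.32, against 0.02 in WT retinas and 0.00 over all genes. Between KO-O2 and WT-O2 the 14 chaperones all had values below 0, with a median of -0.34 against 0.01 over all genes; 1 passed, Creld2 (-0.49 ± 0.11, adjusted p = 0.0954; 8 by DESeq2 and 2 by limma), and 11 had an unadjusted p under 0.05, against 12.6% of all genes. Over all genes in that comparison, 1.27% passed by edgeR, and DESeq2 called 1001 genes. The chaperone genes come from the same samples, and no test over the list was made. In the same comparison 4 of 5 tested erythroid genes were lower in KO-O2 (sums of 370 to 429 CPM, against 983 to 1550 CPM in WT-O2), and rod genes summed to 49200 to 55700 CPM in KO-O2 and 57300 to 65500 CPM in WT-O2, with 0 of 6 passing. Bipolar cell genes lay the other way, with 1 of 5 higher by the test and sums of 691 to 828 CPM in KO-O2 and 517 to 601 CPM in WT-O2. Their part in the levels of the chaperones, and of Atf3, Hspa5 and Xbp1, was not tested. In the interaction the median was -0.26, and 0 of 14 passed by edgeR or limma and 1 by DESeq2. By edgeR 3 had an unadjusted p under 0.05, against 10.6% of all genes.

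In KO-O2 against WT-O2 retinas, 5 of the 85 genes passed by edgeR, 16 by DESeq2 and 6 by limma. Over all genes, 244 passed by edgeR (1.27%) and 1001 by DESeq2, so the larger DESeq2 count came with more calls throughout. Of the 5, 1 was higher. Slc3a2, the heavy chain of amino acid transporters, was at 139 to 152 CPM in WT-O2 and 184 to 214 CPM in KO-O2 (0.45 ± 0.08, adjusted p = 0.0454). Edem2, a mannosidase of ER-associated degradation, was at 72.3 to 75.6 and 48.4 to 54.4 CPM (-0.54 ± 0.09, adjusted p = 0.0395). Atf5 was at 51.6 to 56.6 and 25.2 to 41.4 CPM (-0.70 ± 0.15, adjusted p = 0.0755), and Shmt2, a mitochondrial serine enzyme, differed by -0.35 ± 0.08 (adjusted p = 0.0954). In room air, Atf5 was at 39.6 to 45.3 CPM in WT-RA and 29.6 to 32.0 CPM in KO-RA, and Shmt2 at 68.6 to 75.1 and 56.9 to 60.3 CPM, lower in GSDMD-KO without overlap but short of the threshold (adjusted p = 0.266 and 0.238). In that comparison 17.7% of all genes had no overlap. Slc3a2 was at 140 to 159 CPM in WT-RA and 122 to 128 CPM in KO-RA, the opposite order from exposed retinas (adjusted p = 0.262), with an interaction of 0.71 ± 0.11 that did not pass (adjusted p = 0.123). Of the 85 genes, 0 passed in KO-RA against WT-RA by edgeR or limma and 6 by DESeq2, with 12 at an unadjusted p under 0.05 against 12.7% of all genes. In the interaction 0 passed by edgeR or limma and 4 by DESeq2, with 13 at an unadjusted p under 0.05 against 10.6% of all genes. The shares at an unadjusted p are from edgeR. The DESeq2 counts in both comparisons have no share over all genes beside them, so they are not read as results about the lists. Over 12 fits of KO-O2 against WT-O2 that each left out 1 mouse, Edem2 passed in 8, Slc3a2 in 7, Atf5 in 5, Creld2 in 2 and Shmt2 in 1.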

How the data were processed

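Per the study's methods, reads of whole lung and retina RNA were pseudoaligned with kallisto and imported at the level of genes by tximport. The authors deposited these values as estimated counts, 1 column per mouse, with no division by library size. The submitters' processing notes name the build mm10 and the study's methods a later one, and the tables hold gene identifiers only, named here from a GRCm38 annotation (35816 of 36109 in the lung and 35968 of 36595 in the retina). Many retina values are not whole and may have been scaled within a library, so tests stayed within a tissue.

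Counts were rounded and fitted in R 4.3.3 with edgeR 4.0.16 (TMM, filterByExpr, robust quasi-likelihood test, Benjamini-Hochberg adjustment) over the 12 libraries of a tissue. The 5 contrasts were hyperoxia in each genotype, genotype in each exposure, and their interaction. The study's own threshold of 2-fold was counted separately. Alternatives were DESeq2 1.42.0, limma 3.58.1, RLE scaling, no filter, fewer groups, a sex term and leaving out mice. Mice were called male above 20 CPM of Y-linked genes, and libraries lens-rich above 1000 CPM of lens genes. The 10 genes and all lists were chosen with earlier results of these data known. Named among other pathway genes were, per list, the 3 with the smallest p for hyperoxia in WT, and up to 3 that passed between genotypes. Others were named after their values were seen (Slc7a11, Psph, Wars, Cebpg, Canx, Hsp90b1 and the GSDMD-KO values). Replicate numbers only name mice, with no pairing. At low counts, as for Chac1, counting error adds to the spread between 3 mice.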

Additional observations from a re-analysis of the deposited data

Results flagged for a closer look

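In 4 instances, described by sign and overlap alone, the groups of 1 comparison did not overlap in one direction and those of another in the opposite direction. The mice are unpaired, so this describes groups of 3 and not changes in a mouse. Atf4 in WT was higher with hyperoxia in the lung (log2 0.65) and lower in the retina (-0.20), where it did not pass (adjusted p = 0.326, edgeR). Groups without overlap were found for 49.8% of all genes in that comparison of lungs and 24% in retinas, and the difference between tissues was not tested. Chac1 with hyperoxia in the lung had a log2 difference of 0.40 in WT and -0.25 in GSDMD-KO, and neither of these (adjusted p = 0.101 and 0.304 in edgeR) nor the interaction passed (adjusted p = 0.682). The shares of all genes without overlap were 49.8% in WT and 52.4% in GSDMD-KO lungs. Chac1 in KO-RA against WT-RA had a log2 difference of 0.42 in lungs and -0.61 in retinas, neither of which passed (adjusted p = 0.446 and 0.317 in edgeR). Groups without overlap were found for 15.2% and 17.7% of all genes there, and the difference between tissues was not tested. Herpud1 in WT was higher with hyperoxia in the lung (0.38) and lower in the retina (-0.52), both past the threshold, and the difference between tissues was not tested. As for Atf4, 49.8% of all genes in lungs and 24% in retinas had no overlap.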

How the results depend on the processing

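No paired analysis was possible because each library is a separate mouse and the replicate numbers, given here in the order of the samples, pair no mice. In the lung, the number of the 10 genes that passed stayed at 8 to 9 in WT, 7 to 8 in GSDMD-KO and 0 between genotypes when 1 mouse was left out at a time, and each of the 10 genes that passed did so in all 6 other settings. In the retina these counts ran from 1 to 3 in WT, 0 to 1 in GSDMD-KO and 0 to 3 in KO-O2 against WT-O2. The retina count for KO-O2 against WT-O2 was 3 with DESeq2, and 0 with no low-count filter, with only the groups compared, with sex as an added term and without the 3 lens-rich libraries, a setting chosen after seeing the data that leaves 1 WT-RA and 2 KO-RA retinas. The count for hyperoxia in GSDMD-KO retinas was 2 with DESeq2, 0 with sex as an added term and 0 without the lens-rich libraries, and that in WT retinas was 1 with the sex term. Calls over all genes moved as well. For KO-O2 against WT-O2 they numbered 244 in the main fit and 1001 with DESeq2. They fell to 128 with no low-count filter, 110 with only the groups compared and 116 with the sex term. For hyperoxia in GSDMD-KO they were 1500 in the main fit, 2566 with DESeq2 and 836 with the sex term. In WT they were 990 in the main fit and 374 with the sex term. The cause of these changes was not tested, and sex, lens tissue and group cannot be fully told apart with 3 mice per group.

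Signs turned for genes that did not pass. In retinas, the sex term gave log2 values of 0.0156 for Hspa5 and 0.0848 for Xbp1 in WT and 0.0612 for Atf4 in GSDMD-KO, and leaving out the lens-rich libraries gave 0.0419 for Ddit3 in GSDMD-KO. With 1 mouse left out, values for hyperoxia in WT retinas ran from -0.13 to 0.11 for Ddit3, -0.27 to 0.026 for Chac1, -0.13 to 0.13 for Asns, -0.198 to 0.00948 for Sesn2, -0.10 to 0.11 for Hspa5 and -0.18 to 0.16 for Xbp1. In GSDMD-KO retinas they ran from -0.0616 to 0.0206 for Atf4, -0.213 to 0.0385 for Ddit3 and -0.13 to 0.18 for Sesn2. In lungs they ran from -0.0389 to 0.162 for Hspa5 in GSDMD-KO and from -0.141 to 0.081 for the interaction of Sesn2. Of 528 values of single genes under the other settings 488 kept their direction and their side of the threshold, and of 996 with 1 mouse left out 885 did.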
